A study of Homo sapiens with 6 samples.

Results

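INPP4B and WWC1 are genes on chromosomes 4 and 5 whose surroundings held some of the strongest accessible sites that were called in ZNF436 knockdown cardiomyocytes and in none of the control cultures. Their sites were chosen by position on the genome build hg19: every ATAC-seq peak with its midpoint at 142.9 to 143.8 Mb of chromosome 4 (INPP4B) or at 167.68 to 167.93 Mb of chromosome 5 (WWC1). Peaks from any of the 6 libraries were joined into 1 site where they shared at least 1 bp. The windows held 60 of the 157560 sites of the genome, 28 at INPP4B and 32 at WWC1. Both genes had been picked because a strong site was called there in 3 of 3 knockdown and 0 of 3 control libraries. The calls and scores below are therefore a description of the places chosen, with no test.

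The first group of cultures carried a knockdown of ZNF436, which encodes a KRAB zinc finger protein, and were set against control cultures, with 3 libraries in each group. All 6 libraries came from ventricular-like cardiomyocytes at day 15, made from the single human embryonic stem cell line H9 with a commercial differentiation kit, and the replicates were independent differentiations. How ZNF436 was knocked down and what the control cultures received is not given in the sources used here. ATAC-seq marks open chromatin by letting the transposase Tn5 cut and tag it, and the series sets it beside gene expression and histone marks in a study of regulatory elements derived from transposons. The files hold peak positions and a caller's score and no reads, so sequencing depth is unknown, and neither the identity of the cells nor the loss of ZNF436 was checked here.

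INPP4B is a lipid phosphatase that removes a phosphate from a phosphatidylinositol messenger made downstream of the phosphoinositide kinases, and so limits signalling through the kinase AKT. WWC1, also named KIBRA, is a scaffold protein with WW domains that works with NF2 to activate the LATS kinases of the Hippo pathway, which hold back YAP, a transcriptional co-activator that works through TEAD factors. In heart muscle, AKT signalling is known for its part in cell growth and survival, and the Hippo pathway for limiting cardiomyocyte proliferation. KRAB zinc finger proteins are known to bind DNA, often within transposons, and to recruit silencing machinery there.

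The start regions of both genes are shown because they fix the direction in which the sites are counted along each gene. RefSeq lists INPP4B on the minus strand, so that its outermost start lies towards the high end of its window, and WWC1 on the plus strand, with its start towards the low end. The sequences are RefSeq's on GRCh38.p14, 250 bases before to 50 bases after a start, 5′ to 3′, with CG dinucleotides in capitals. They lie at chr4:142846252-142846551 (minus strand), chr4:142405810-142406109 (minus strand) and chr5:168291395-168291694 (plus strand). The sites were called on hg19 and were not placed relative to these starts.
INPP4B outermost start: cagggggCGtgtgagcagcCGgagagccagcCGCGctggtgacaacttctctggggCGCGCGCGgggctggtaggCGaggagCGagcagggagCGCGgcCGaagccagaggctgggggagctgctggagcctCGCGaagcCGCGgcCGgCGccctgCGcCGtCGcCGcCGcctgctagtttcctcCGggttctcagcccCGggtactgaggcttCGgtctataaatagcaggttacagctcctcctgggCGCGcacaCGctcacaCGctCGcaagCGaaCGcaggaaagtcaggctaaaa
INPP4B next start inward: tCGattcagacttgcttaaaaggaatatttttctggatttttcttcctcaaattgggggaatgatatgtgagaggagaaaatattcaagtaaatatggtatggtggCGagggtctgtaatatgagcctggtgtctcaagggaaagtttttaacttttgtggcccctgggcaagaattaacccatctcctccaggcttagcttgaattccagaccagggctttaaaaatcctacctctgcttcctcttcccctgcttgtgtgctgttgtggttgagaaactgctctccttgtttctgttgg
WWC1 start: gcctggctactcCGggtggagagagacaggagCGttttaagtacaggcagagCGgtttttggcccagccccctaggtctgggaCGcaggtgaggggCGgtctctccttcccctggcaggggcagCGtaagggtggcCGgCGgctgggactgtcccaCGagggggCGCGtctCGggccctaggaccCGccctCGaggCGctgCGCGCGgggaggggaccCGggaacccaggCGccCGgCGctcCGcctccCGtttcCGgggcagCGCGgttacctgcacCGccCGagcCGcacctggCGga
The outermost INPP4B start region held 34 CG dinucleotides in 300 bases and that of WWC1 held 31, against a median of 14 over the 35116 start regions of the table. RefSeq gives 6 start regions for INPP4B, and the other 5 held 0 to 2. The letters TATAAA, searched on both strands, occurred in the outermost INPP4B region, in the 2 innermost ones, which overlap each other, and in 11.5% of all start regions, and were not in the WWC1 region. The letters GGAATG, a core of the motif of the Hippo pathway's TEAD factors, occurred in the second INPP4B region and in 14.0% of all, and the letters AGATAA, recognised by cardiac factors such as GATA4, were in the fourth INPP4B region from the outermost, in none of the 3 regions printed and in 10.3% of all. TATAAA and AGATAA have the letters ATAA in common. A match or its absence describes these windows alone.

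Every library of the knockdown had more called peaks in both windows than every control library. At INPP4B the knockdown libraries (replicates 1, 2 and 3) held 22, 23 and 17 peaks, against 7, 7 and 13 in the control libraries. The mean was 20.7 ± 3.21 in knockdown and 9.0 ± 3.46 in control (SD, n = 3 each), a ratio of 2.3 ± 0.953, and control replicate 3 was the highest control. In bulk cells, a site open in more cells and a site more open in each cell cannot be told apart. At WWC1 the knockdown libraries held 28, 21 and 24 peaks, against 9 in each control library. The mean was 24.3 ± 3.51 in knockdown and 9 ± 0 in control (SD, n = 3 each), a ratio of 2.70 ± 0.39. The whole lists of the knockdown libraries were also longer, with 87871 to 115864 peaks against 50719 to 68342 in control, a ratio of 1.77. Such a separation of the groups was common: it held in 85.3% of all tiles of 900 kb, the length of the INPP4B window, and in 55.5% of all tiles of 250 kb, the length of the WWC1 window. Among tiles with a control peak, the median peak ratio was 2.02 for 900 kb and 2.0 for 250 kb. A ratio at least that of the window was found in 34.0% and 24.9% of them.

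Scaled to list length, the windows differed less. Per 100000 peaks of its list, INPP4B held 19.0, 22.4 and 19.3 peaks in the knockdown libraries and 13.8, 13.0 and 19.0 in the control libraries, and the groups overlapped by a narrow margin at control replicate 3. The ratio of these shares was 1.33 ± 0.308. WWC1 held 24.2, 20.5 and 27.3 per 100000 peaks in knockdown and 17.7, 16.8 and 13.2 in control, which did not overlap, with a ratio of 1.51 ± 0.314. A larger share in each knockdown library than in each control library was found in 33.3% of the tiles of 900 kb and in 21.5% of those of 250 kb.

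**Figure D1:**
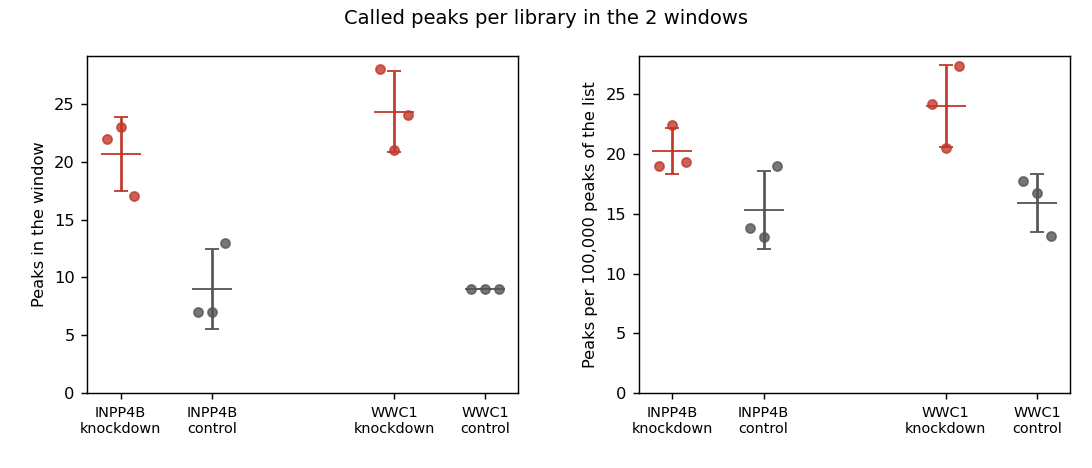
Called peaks per library in the INPP4B and WWC1 windows, as numbers (left) and per 100000 peaks of the library's list (right). Points are libraries, dashes are means and bars are SD (n = 3 each). At WWC1 the knockdown libraries stand at 21 to 28 peaks and the control libraries all at 9, and at INPP4B the scaled values of the groups meet at 19.0.

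The bases covered by peaks differed more than the number of peaks. At INPP4B peaks covered 6331, 8042 and 5429 bp in the knockdown libraries and 1244, 1969 and 2494 bp in the control libraries, a ratio of 3.47 ± 1.34. At WWC1 they covered 10225, 9408 and 8910 bp in knockdown and 2598, 2446 and 3083 bp in control, a ratio of 3.51 ± 0.496. Over the genome the ratio of covered bases was 1.85 ± 0.336. In the 1 Mb on each side of the windows, outside the sequence chosen, it was 2.15 ± 0.444 around INPP4B and 2.38 ± 0.678 around WWC1.

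Of the 28 sites at INPP4B, 4 were called in 3 of 3 knockdown and 0 of 3 control libraries (14.3%), and of the 32 at WWC1, 7 were (21.9%). Such knockdown-only sites made up 7.72% of all sites of the genome. No site of either window was called in 3 of 3 control and 0 of 3 knockdown libraries, a pattern held by 0.131% of all sites. All 6 libraries called 6 sites in each window, which is 21.4% at INPP4B and 18.8% at WWC1, against 18.2% of all sites. The remaining 37 sites of both windows had other patterns of calls. A single site of the 60 (1.67%), at WWC1, was called in control libraries alone, beside 10.7% of all sites, and there in replicate 2 only.

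The windows differed in how densely these sites lay. A tile of 900 kb held a median of 3 knockdown-only sites, and 48.4% of the 3193 tiles with a site held at least the 4 of the INPP4B window. A tile of 250 kb held a median of 1, and 0.332% of 11152 tiles (37) held at least the 7 of the WWC1 window. The WWC1 window was also rich in shared sites, with 6 against a median of 2 per tile. Among the 390 tiles of 250 kb with exactly 6 shared sites, the median was 2 knockdown-only sites and 0.513% held 7 or more. The window was picked for a knockdown-only site and the tiles were not, so these shares are no measure of chance. The count at WWC1 was 3 with lists cut to equal length by score and 1 with a random thinning. In the 1 Mb on each side, 22 of 163 sites around WWC1 (13.5%) and 9 of 62 around INPP4B (14.5%) were knockdown-only.

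**Figure D2:**
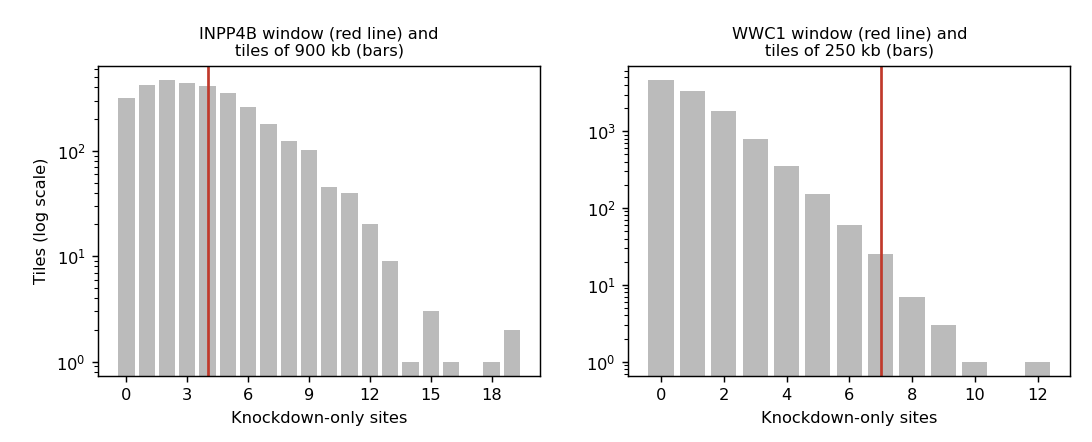
Number of tiles of the genome (log scale) by the number of sites called in 3 of 3 knockdown and 0 of 3 control libraries, for tiles of 900 kb (left) and 250 kb (right). The red line marks the window itself. INPP4B with 4 sites lies near the middle of its tiles and WWC1 with 7 lies in the upper end of its tiles, where 37 tiles hold as many or more.

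The strongest knockdown-only site of INPP4B lay at chromosome 4:143269798-143270169, 530.0 kb into the window from the side of the gene's outermost start. Its peaks spanned 275, 309 and 372 bp in knockdown replicates 1, 2 and 3, all within these 372 bp. The authors' scores were 424, 396 and 441, which placed the peaks at percentiles 86.2, 84.3 and 88.5 of their own lists. By its lowest percentile it ranked 3 among the 12157 knockdown-only sites of the genome, of which 13 had a lowest percentile above 80. The nearest peak of control replicates 1 and 2 lay 56.9 and 56.7 kb away. Control replicate 3 had a peak 4.67 kb away, with a score of 30 at percentile 6.45.

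The strongest knockdown-only site of WWC1 lay at chromosome 5:167870696-167871575, 191.1 kb into the window from the gene-start side. Its peaks spanned 660, 533 and 880 bp in knockdown replicates 1, 2 and 3, so the site was wider than the one at INPP4B. The authors' scores were 575, 369 and 472, at percentiles 90.8, 83.0 and 89.5 of their lists, and the site ranked 4 among the knockdown-only sites of the genome. The nearest control peaks lay 37.4, 13.7 and 39.7 kb away in replicates 1, 2 and 3, with scores of 41, 28 and 47 at percentiles 11.7, 8.07 and 24.0. Both lead sites lay above percentile 80 of every knockdown list, and a strong site was the reason for picking each gene. The nearest control peaks, at or below percentile 24.0 of their lists, lay elsewhere and give no control value for the lead sites.

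The lead sites were among the strongest that no control library called, and of middle rank among sites that all libraries called. Set among the 28749 sites called in all 6 libraries, by the scores of the same library, the INPP4B site stood at percentiles 48.3, 47.6 and 65.8 and the WWC1 site at 63.8, 44.1 and 68.8 in knockdown replicates 1, 2 and 3. With each list reduced to its strongest 50719 peaks, the length of the shortest list, both sites were called in every knockdown library and in no control library. This followed from their high percentiles, since the cut removed only weaker peaks and could add no control peak. The lowest percentiles of the lead sites were then 68.3 at INPP4B and 65.6 at WWC1. In such lists the knockdown-only sites were 2 of 15 at INPP4B and 3 of 17 at WWC1, against 3.08% of all sites of these lists. These counts include the lead sites, for which the genes were picked. The site at chromosome 5:167791710-167792519 of WWC1 was not knockdown-only in the full lists. There control replicate 3 called it at percentile 14.9, and the cut removed that control peak.

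The other knockdown-only sites were weaker. At INPP4B, the site at chromosome 4:143453183-143453673 stood at percentiles 58.1, 63.1 and 74.7 of the knockdown lists. It was the second of the 2 sites that remained knockdown-only in lists of equal length. The site at chromosome 4:143279965-143280230, 266 bp wide, stood at 29.3, 26.4 and 67.8, so that replicate 3 was far above the others. The fourth, at chromosome 4:143608806-143609212, stood at 39.8, 14.5 and 37.1.

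At WWC1, the site at chromosome 5:167836729-167837453 came second, at percentiles 67.2, 60.8 and 60.8, and was also knockdown-only in lists of equal length. The site at chromosome 5:167853373-167854441 was the widest of the 11, at 1069 bp, and stood at 48.4, 37.0 and 46.9. Towards the gene-start side, the sites at chromosome 5:167741968-167742252 and chromosome 5:167747754-167748130 stood at 44.3, 41.6 and 37.1 and at 39.8, 45.7 and 24.7. The remaining pair stood lowest, at 44.3, 14.5 and 37.1 for chromosome 5:167697350-167697812 and at 16.6, 14.5 and 50.9 for chromosome 5:167909477-167909645. Over the 4 sites at INPP4B the median of the lowest percentiles was 42.2 and over the 7 at WWC1 it was 37.0, beside 26.4 for all knockdown-only sites of the genome. Both medians include the lead site for which the gene was picked, so the choice itself raised them. Apart from the lead sites, the lowest percentiles were 58.1, 26.4 and 14.5 at INPP4B and ran from 14.5 to 60.8 at WWC1. Sites of both windows thus ranged from a lowest percentile of 14.5 to 84.3 and were not uniformly strong.

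**Figure D3:**
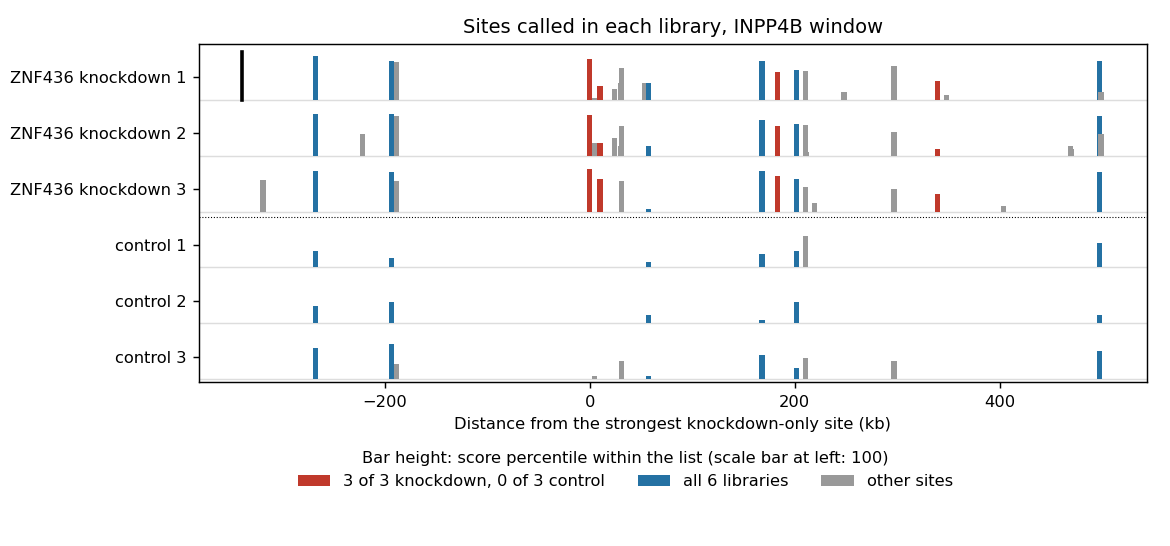
Sites of the INPP4B window in each library by distance from the strongest knockdown-only site, in kb. The height of a bar is the score percentile within that library's list (black bar: 100), with red for sites called in 3 of 3 knockdown and 0 of 3 control libraries, blue for sites of all 6 libraries and grey for the rest. No control library has a bar at 0, where the knockdown libraries stand at 86.2, 84.3 and 88.5.

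**Figure D4:**
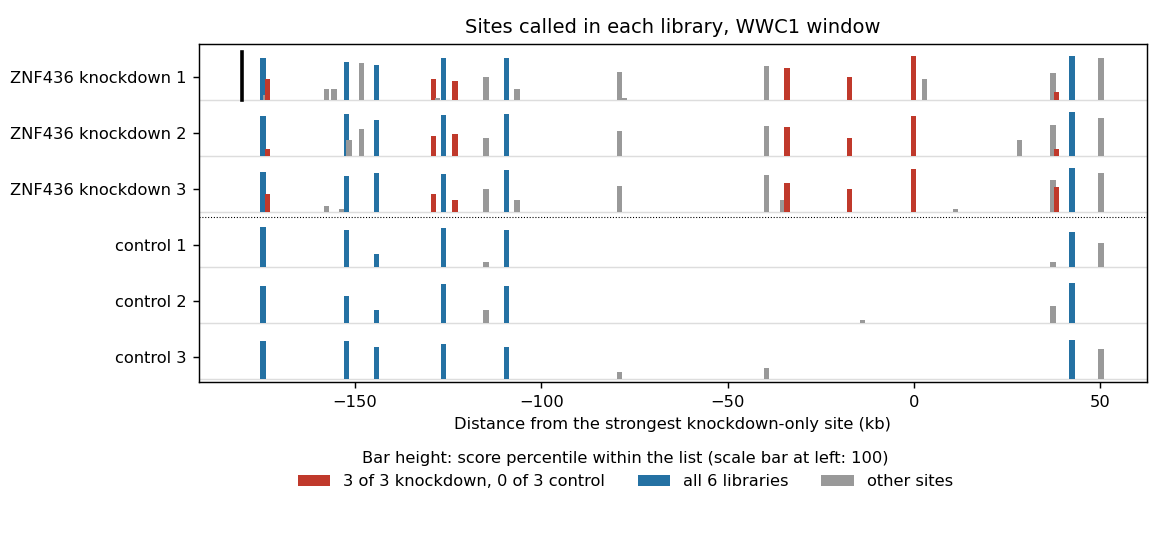
Sites of the WWC1 window in each library by distance from the strongest knockdown-only site, in kb, drawn as for INPP4B (bar height: score percentile within the list, black bar: 100). The blue shared sites lie mostly 109 to 175 kb on the gene-start side, and no control library has a bar at 0, where the knockdown libraries stand at 90.8, 83.0 and 89.5.

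Knockdown-only sites lay at different distances from shared ones in the windows. The distance to the nearest site of all 6 libraries was 15.4 to 137.6 kb at INPP4B (median 52.0 kb) and 1.19 to 75.3 kb at WWC1 (median 4.08 kb), beside a median of 25.9 kb over all knockdown-only sites. Shared sites were also denser at WWC1, with 24 per Mb against 6.67 at INPP4B. The lead sites lay 57.1 kb (INPP4B) and 42.5 kb (WWC1) from the nearest shared site. The median width of the knockdown-only sites was 390 bp at INPP4B and 463 bp at WWC1, beside 353 bp over the genome. The 12 shared sites of the windows had a median width of 597 bp, beside 873 bp over all shared sites.

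Of the 6 shared sites of INPP4B, 3 stood higher in every knockdown library than in every control library, as did 11.3% of all shared sites of the genome. The measure was a site's percentile among the same 28749 shared sites in each library, which ranks the same sites in every library. At chromosome 4:143002126-143002506 it was 70.0, 55.9 and 57.3 in the knockdown libraries and 13.0, 12.8 and 31.1 in the control libraries, without overlap. At chromosome 4:143766717-143768005, the shared site nearest to the gene-start side of the window, 32.6 kb from its end, it was 35.2, 44.1 and 51.2 in knockdown and 27.4, 3.8 and 23.1 in control, again without overlap. At chromosome 4:143437722-143438272 it was 33.3, 26.4 and 55.4 in knockdown and 8.69, 1.27 and 15.2 in control, also without overlap.

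The other shared sites of INPP4B overlapped between the groups. At chromosome 4:143076566-143076871 the percentiles were 35.2, 54.3 and 51.2 in knockdown and 5.06, 18.5 and 42.2 in control, where replicate 3 was the highest. At chromosome 4:143471193-143471643 they were 10.9, 16.6 and 24.2 in knockdown and 13.0, 18.5 and 2.79 in control. The sixth, at chromosome 4:143326395-143327675, stood at 3.8 or less in every library. No shared site of the window was lower in every knockdown library than in every control library, against 12.5% of all shared sites.

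At WWC1, 5 of the 6 shared sites overlapped between the groups. In this window 0 of 6 were higher in each knockdown library and 1 was lower. That site, at chromosome 5:167696066-167696708, stood at 53.4, 45.9 and 53.4 in knockdown and 75.6, 61.6 and 57.6 in control. The site at chromosome 5:167913221-167914065, near the far end of the window, stood at 70.0, 73.5 and 72.8 in knockdown and 57.8, 71.5 and 62.5 in control. At chromosome 5:167718337-167719256 the percentiles were 29.3, 58.8 and 34.4 in knockdown and 65.0, 30.8 and 54.9 in control. At chromosome 5:167744618-167745044 they were 50, 47.6 and 44.4 in knockdown and 72.5, 69.3 and 42.2 in control, and at chromosome 5:167761387-167762234 they were 53.4, 55.9 and 64.2 in knockdown and 62.8, 61.6 and 34.9 in control. The sixth, at chromosome 5:167726828-167727142, stood at 21.6, 26.4 and 46.7 in knockdown and 8.69, 7.70 and 34.9 in control. The median over the 6 sites of their group medians was 50.5 in knockdown and 61.6 in control at WWC1, and 38.7 in knockdown and 13.0 in control at INPP4B. RefSeq's table places RARS1, which encodes an arginyl-tRNA synthetase, next after WWC1, and sites near the far end of the window could not be assigned to either gene.

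**Figure D5:**
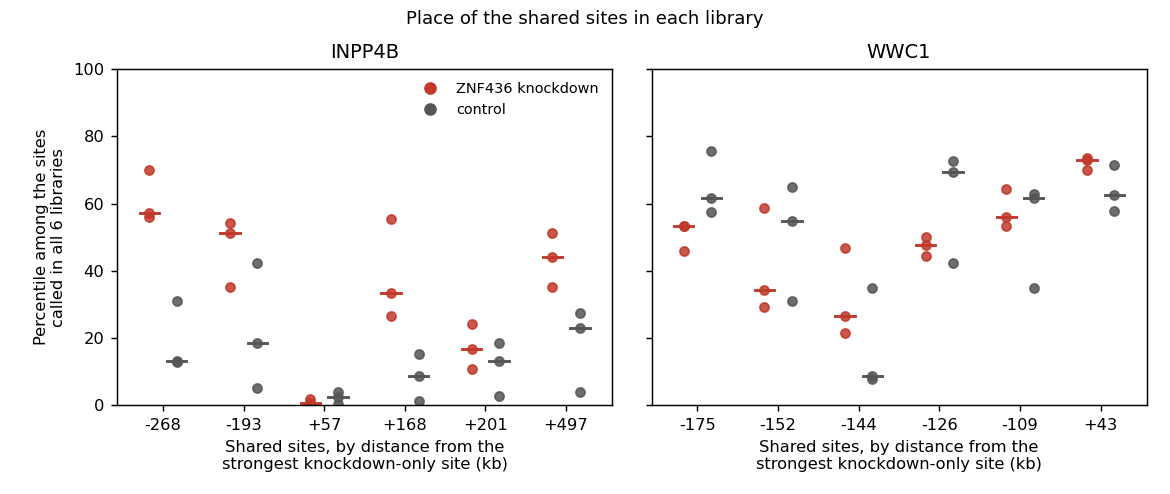
Percentile of the 6 shared sites of each window among all sites called in all 6 libraries, by library, with the sites ordered by distance from the strongest knockdown-only site (kb). Points are libraries and dashes are group medians. At INPP4B, 3 sites have all knockdown points above all control points, and at WWC1 none has.

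Some sites missed the rule for knockdown-only calls through a peak in 1 control library. In both windows together, 5 sites were called in 3 knockdown libraries and 1 control library, 3 at INPP4B (10.7%) and 2 at WWC1 (6.25%), beside 7.63% of all sites, and in all 5 the control library was replicate 3. Over the genome replicate 3, the longest control list, was that library in 69.2% of 12015 such sites. The strongest of the 5 by lowest percentile were chromosome 4:143081533-143081973 at INPP4B, at 78.5, 83.0 and 63.4 in knockdown and 32.3 in that control library, and chromosome 5:167831260-167831812 at WWC1, at 70.8, 63.1 and 76.2 in knockdown and 24.0 in that control library. Without control replicate 3 the knockdown-only sites were 7 at INPP4B and 9 at WWC1, and without knockdown replicate 3 they were 7 at INPP4B. A condition on fewer libraries is easier to meet, but leaving out any other library left the count at INPP4B at 4. On the other side of the rule, 3 sites in each window were called in 2 knockdown libraries and no control library (10.7% at INPP4B and 9.38% at WWC1, beside 11.5% of all sites), the strongest being chromosome 4:143293837-143294202 at INPP4B and chromosome 5:167722642-167723101 at WWC1. Another 10 sites in each window were called in 1 knockdown library alone (35.7% at INPP4B and 31.2% at WWC1, beside 28.5% of all sites).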

How the data were processed

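The 6 libraries of ATAC-seq, 3 of ZNF436 knockdown and 3 of control cells at day 15 gave 1 peak list each. The deposited lists hold positions and, for every peak, the caller's score, a whole number of unstated scale. The genome build was hg19, and the tools Bowtie2 2.4.5 and bedtools 2.30.0 are named with no role, per the submitters' processing notes. Peak names begin with MACS and name 1 library. The caller's version and threshold, any Tn5 shift and duplicate removal are not stated there or in the labels, and depth is unknown.

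Groups came from the sample titles. Peaks of all libraries that shared at least 1 bp were merged over the whole genome. A site was called in a library with a peak on it. Scores, 99.7 to 99.9% of which were shared with another peak of the list, were turned into percentiles within a list with mean ranks. Ties at the end of equal lists were broken at random with a fixed seed. The highest peak stood for a site in a library. Tiles of the windows' lengths covered chromosomes 1 to 22 and X, counting tiles with at least 1 site. The SD of a ratio combines both groups' relative SDs.

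The genes, windows and rules were chosen with earlier results of these data known, so no test was made. Named were all knockdown-only sites (up to 10 a window) and up to 5 shared sites by lowest percentile, and the strongest just outside the rule. The sixth shared site of each window was named after its values were seen. Merging was checked on made-up peaks. No hg19 genome or annotation was used, so exons, introns, sequences of the sites and pathway genes were not analysed here. Python 3.11.15, pandas 2.3.3, numpy 2.4.6 and matplotlib 3.10.9 were used.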

Additional observations from a re-analysis of the deposited data

How the results depend on the processing

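When every list was cut to equal length by score, the knockdown-only sites were 2 at INPP4B and 3 at WWC1, and the peak ratios were 1.48 and 1.54. With 1 random thinning to that length they were 2 and 1, the sites of all 6 libraries 3 and 1, and the peak ratios 1.54 and 1.46; neither lead site was then called in all 3 knockdown libraries. Shorter lists leave fewer peaks to call by construction. In the upper 50% of each list by score, INPP4B kept 0 sites of all 6 libraries. Its peak ratio was 5.67 and its share ratio 3.46, from 11, 11 and 12 knockdown peaks against 2, 0 and 4 control peaks. These knockdown peaks include the strong lead site for which the gene was picked. No shares of tiles are given here for this cut. The WWC1 peak ratio was 2.17 and its share ratio 1.23, below the 1.51 of the full lists. The cause was not tested. The next 2 alternatives were chosen after seeing the data. Where peaks had to cover 50% of a site, 0 sites at INPP4B and 2 at WWC1 were called in all 6 libraries. Without 20 kb at each end of the windows, the WWC1 peak ratio was 3.16.

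Leaving out 1 library gave 4 to 7 knockdown-only sites at INPP4B and 7 to 9 at WWC1. The peak ratios ran from 2.07 to 2.95 and from 2.50 to 2.89, and the share ratios from 1.23 to 1.51 and from 1.39 to 1.62. Asking a peak to lie on a site by 50% of its own length could change nothing, since merged sites contain their peaks, and merging peaks up to 100 bp apart changed none of these counts. Under every alternative run, neither window had a site called in every control and no knockdown library, a rare pattern (0.131% of all sites). In equal lists by score, INPP4B did hold sites called in some control libraries alone. They were chromosome 4:143326505-143327010 in control replicates 1 and 2 and chromosome 4:143327062-143327424 in control replicate 2. Both lie within a site that all 6 full lists called. No ratio crossed 1 under the alternatives run. The lowest percentile of the lead sites, 84.3 at INPP4B and 83.0 at WWC1, was 68.3 and 65.6 in equal lists by score, 68.6 and 65.9 in the upper 50% of the lists, and 47.6 and 44.1 among the sites of all 6 libraries, a ranking added after seeing the data. It was 89.5 at WWC1 without knockdown replicate 2. Removing weaker peaks lowers the percentile of those that remain, so the values in cut lists follow from the cut itself.

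With the replicate number as a block (the mean log ratio of same-numbered libraries), the peak ratios were 2.38 at INPP4B and 2.69 at WWC1, and the share ratios 1.34 and 1.51. Deviations from the group means over 2850 bins of 1 Mb correlated by 0.032, 0.11 and 0.092 between libraries of the same number. Between libraries of different numbers the correlations ran from -0.14 to 0.042. These values do not settle whether the numbers pair the samples, so the ratios are given with and without the block. The unknown depth limits every count here.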
